A study of Mus musculus with 29 samples.

Results

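Neurl3 (ENSMUSG00000047180) encodes neuralized E3 ubiquitin protein ligase 3 and lies on the minus strand of mouse chromosome 1, at chr1:36264597-36274679 of GRCm38. The members described here are all windows that the deposited table assigned to Neurl3, which were 5 of 260686. They were picked because 1 window was lower and a nearby window was higher in methylation after ovalbumin (OVA), so the differences after OVA at these windows are a description and carry no test. Windows elsewhere, and comparisons between dams, were tested.

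Lung DNA of 29 Balb/c mice was profiled by whole-genome methyl-sequencing (WGMS), an enzymatic method that tells methylated from unmethylated cytosines. Dams had received PM2.5, which is fine airborne particulate matter, or saline through the nose before mating, during gestation and until weaning, and their 13-week-old female offspring were given OVA to induce allergic airways disease (AAD) or PBS. The study's methods name the control challenge as nebulised saline. They place a methacholine lung function test before lung collection and describe lavage right after that test. The groups were Sham (saline dam, PBS offspring, n = 7), Sham-OVA (saline dam, OVA offspring, n = 7), PM (PM2.5 dam, PBS offspring, n = 7) and PM-OVA (PM2.5 dam, OVA offspring, n = 8). Each value is the mean percent methylation (%DNAm) of the CpGs in a window, and neither read counts nor coverage were in the table, so the depth behind a value is unknown here. Nothing in the sources ties a library to a dam or litter, so the spread between libraries may be smaller than that between litters.

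The tissue was a piece of lung with all its cell types (RML in the labels, right lower lobe in the study's methods), and a shift in the mix of cells and a change within one cell type cannot be told apart in such samples. Of 1230 windows on chromosome Y, Sham replicate 1 had a value in 1224 and the other 28 libraries in 29 to 46. The value of Sham replicate 1 is at odds with the description of the offspring as female, and the reason is unknown. This library was kept, and the differences of the windows that the Sham arm turns on are also given without it. Over all tested windows, mean %DNAm was 69.1 ± 0.367 in Sham, 68.8 ± 0.597 in Sham-OVA, 69.4 ± 0.463 in PM and 68.4 ± 0.392 in PM-OVA (SD over libraries).

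Neuralized proteins are E3 ubiquitin ligases, best known from the fly protein Neuralized, which ubiquitinates Notch ligands and thereby promotes their uptake by the signalling cell. Neurl3 is also called Lincr, for lung-inducible neuralized-related, and has been described in alveolar type II cells, the surfactant-producing cells of the alveolus, as a gene induced by inflammatory stimuli. DNA methylation at CpGs is commonly low at active promoters and enhancers and high in the bodies of transcribed genes, and regulatory elements that are active in one cell type are often less methylated in that cell type than in others.

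The 5 windows adjoined each other without a gap from position 36261641 to 36276321, which is 14681 bp, and no other annotated gene overlapped them. GENCODE M21 gives Neurl3 a pair of transcripts. Neurl3-201 starts at position 36273435 and has 4 exons, and Neurl3-202 starts 1244 bp farther upstream. In the order of transcription, the upstream window (chr1:36273512-36276321, 2810 bp) held the first exons of Neurl3-202, intronic sequence between them and 1642 bp upstream of the gene. The exon 1 window (chr1:36269656-36273511, 3856 bp) held exon 1 of Neurl3-201 and was intronic over 3636 bp. The exon 2 window (chr1:36268914-36269655, 742 bp) was exonic throughout, with 511 coding bases that included 443 bp of exon 2. The exons 3 and 4 window (chr1:36264752-36268913, 4162 bp) held 1909 exonic bases, mostly untranslated, and 2253 intronic bases. The 3' flanking window (chr1:36261641-36264751, 3111 bp) had only its first 155 bp in the gene, in the untranslated end of exon 4, and 2956 bp downstream of it.

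The windows were defined by CpG content and each spanned 100 to 102 CpG cytosines over both strands, hence their lengths follow CpG density. The exon 2 window was the densest with 66.0 CpGs per kb, against 15.8 in the 3' flanking window and 11.8 to 17.8 in the other windows. Its GC content was 57.3% and its ratio of observed to expected CpGs was 0.807, and repeats masked in the genome sequence covered 7.14% of it. The 3' flanking window had 43.0% GC, a ratio of 0.343 and 35.2% repeats.

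The sequences below are the 300 bases with the most CpGs within the 3' flanking and exon 2 windows, outside untranslated sequence. They are shown because methylation is measured at their CpGs and because these windows had the largest differences after OVA. Both are read 5′ to 3′ on the minus strand of the RefSeq GRCm38 sequence, with each CpG in capitals. The stretch of the exon 2 window at chr1:36269335-36269634 is coding and has 31 CpGs. That of the 3' flanking window at chr1:36262201-36262500 has 11.
Exon 2 window: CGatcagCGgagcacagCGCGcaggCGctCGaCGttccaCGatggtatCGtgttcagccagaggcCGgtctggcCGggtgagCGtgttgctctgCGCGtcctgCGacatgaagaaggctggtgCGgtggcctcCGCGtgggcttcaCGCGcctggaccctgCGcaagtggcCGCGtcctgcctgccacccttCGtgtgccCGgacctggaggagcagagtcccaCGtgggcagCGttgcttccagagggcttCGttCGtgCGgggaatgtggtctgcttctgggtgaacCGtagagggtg
3' flanking window: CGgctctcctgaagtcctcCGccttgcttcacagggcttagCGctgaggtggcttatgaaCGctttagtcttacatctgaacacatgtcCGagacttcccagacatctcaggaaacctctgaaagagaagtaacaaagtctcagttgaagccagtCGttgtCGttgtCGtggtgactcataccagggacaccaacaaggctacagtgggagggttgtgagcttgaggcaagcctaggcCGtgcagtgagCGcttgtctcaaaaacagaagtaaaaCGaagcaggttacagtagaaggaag

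After OVA, %DNAm was lower at both ends of the Neurl3 locus and higher at exon 2. The 3' flanking window was lower by 16.6 points in offspring of Sham dams and by 14.2 points in offspring of PM dams. The exon 2 window was 12.6 and 9.54 points higher, the upstream window was about 7 points lower in both arms, and differences at the exon 1 and the exons 3 and 4 windows were below 3 points. At least 10 points separated the groups at 2 of 5 windows in the Sham arm and at 1 of 5 in the PM arm. The groups did not overlap at those windows. Of all tested windows, 8.58% in the Sham arm and 12% in the PM arm did not overlap. At least 10 points with an adjusted p under 0.05 (limma, described below) were found at 0.775% and 0.584% of them. The counts at Neurl3 follow from how the gene was picked.

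The 3' flanking window was moderately methylated without OVA. In Sham it ranged from 49.8% to 59.0% (median 57.6%) and in PM from 52.7% to 58.6% (median 55.4%). In Sham-OVA it ranged from 32.9% to 47.1% (median 37.1%) and in PM-OVA from 35.8% to 46.7% (median 40.3%). Each OVA library was therefore below each library without OVA of the same dam treatment. The space between the groups was 2.73 points in the Sham arm, where Sham-OVA replicate 5 was the highest challenged library, and 6.01 points in the PM arm. Group means were 55.2 ± 3.90% in Sham (SD, n = 7), 38.6 ± 4.61% in Sham-OVA (n = 7), 55.5 ± 1.81% in PM (n = 7) and 41.3 ± 3.52% in PM-OVA (n = 8). Without Sham replicate 1 the difference in the Sham arm was −16.0 points.

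At exon 2, 4162 bp from the 3' flanking window, methylation was higher after OVA. Sham ranged from 54.0% to 68.4% (median 66.8%) and Sham-OVA from 71.3% to 80.2% (median 77.1%). All Sham-OVA libraries were above all Sham libraries, by at least 2.90 points. PM ranged from 52.4% to 71.9% (median 64.7%) and PM-OVA from 70.3% to 79.9% (median 73.9%). Here the groups overlapped, because PM replicate 2 was at 71.9% and 2 of 8 PM-OVA libraries were below it. Means were 63.5 ± 5.33% in Sham, 76.1 ± 3.73% in Sham-OVA, 64.6 ± 6.07% in PM and 74.2 ± 3.18% in PM-OVA. Without Sham replicate 1 the difference in the Sham arm was 13.2 points. In the PM arm it was 7.51 points without PM replicate 3, the lowest library of its group.

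**Figure D1:**
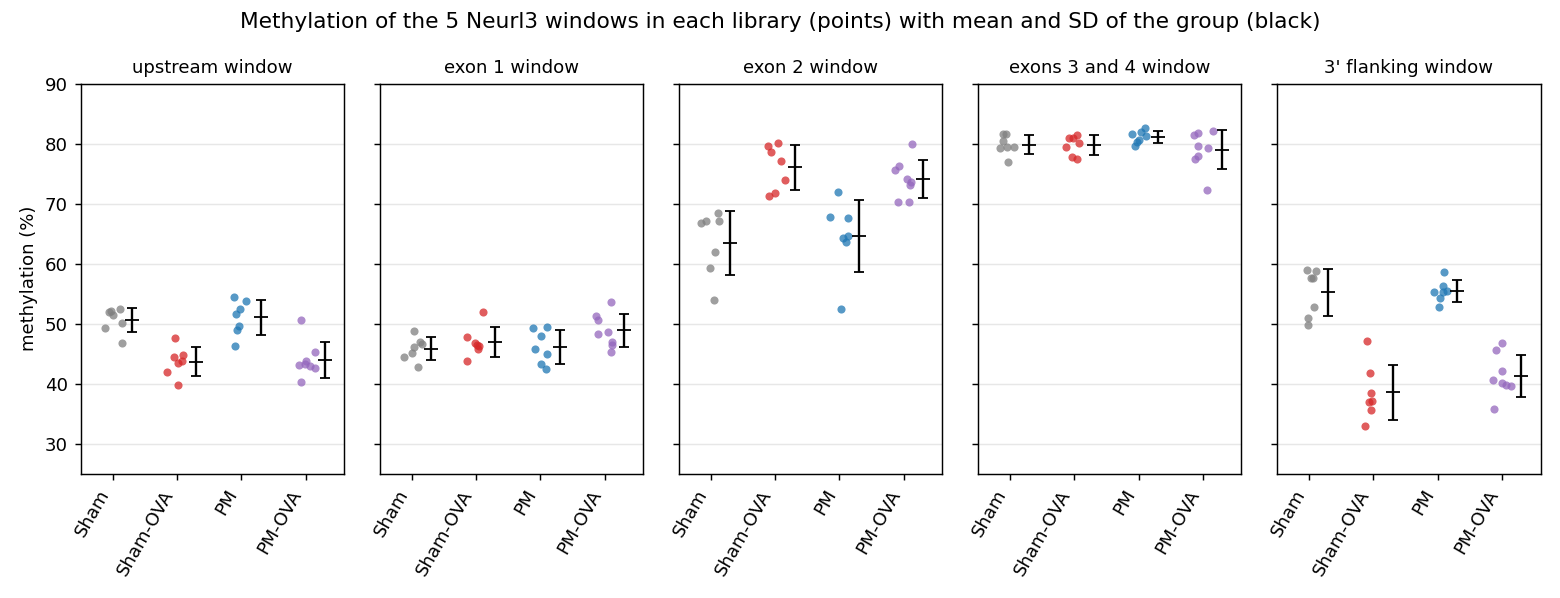
Percent methylation (y axis) of the 5 Neurl3 windows (panels, in the order of transcription) in each of the 29 libraries, with points for libraries by group (x axis) and black bars for the group mean and SD. The challenged libraries of the 3' flanking window lie at 32.9% to 47.1% and those without OVA at 49.8% to 59.0%, and in the exon 2 window challenged libraries lie at 70.3% to 80.2% and the others at 52.4% to 71.9%, so that these ranges overlap.

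The upstream window, which contains the start of Neurl3-202 and the flank of both transcript starts, was lower after OVA to a smaller extent. Sham ranged from 46.9% to 52.5% (median 51.4%) and Sham-OVA from 39.7% to 47.6% (median 43.8%), so that 6 of 7 Sham-OVA libraries were below all Sham libraries. PM ranged from 46.4% to 54.5% (median 51.7%) and PM-OVA from 40.4% to 50.6% (median 43.2%), and 7 of 8 PM-OVA libraries were below all PM libraries. PM-OVA replicate 1 was the exception at 50.6%. The differences of means were −6.92 and −7.07 points, and the former was −6.79 points without Sham replicate 1.

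The remaining windows differed after OVA by less than the pooled SD of the 2 groups compared, by 0.984 of it at most (exon 1, PM arm). Against the SD over all 4 groups, 2.53 points at exon 1 and 2.04 at exons 3 and 4, the PM arm's differences of 2.75 and −2.12 points were slightly larger in size. In the exon 1 window, which is mostly the first intron of Neurl3-201, means were 45.9 ± 1.93% in Sham, 47.0 ± 2.51% in Sham-OVA, 46.2 ± 2.81% in PM and 48.9 ± 2.77% in PM-OVA. The exons 3 and 4 window was the most methylated of the 5, at 79.9 ± 1.61% in Sham, 79.8 ± 1.61% in Sham-OVA, 81.1 ± 1.04% in PM and 79.0 ± 3.22% in PM-OVA. Groups overlapped in both windows and both arms. The lowest library of the exons 3 and 4 window was PM-OVA replicate 7, at 72.3%. It is 1 of 2 PM-OVA libraries with Rel in their names, and without these 2 the difference in the PM arm moved from −2.12 to −0.740 points. The exon 1 difference in the Sham arm, 1.12 points, was 0.287 points without Sham-OVA replicate 6.

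**Figure D2:**
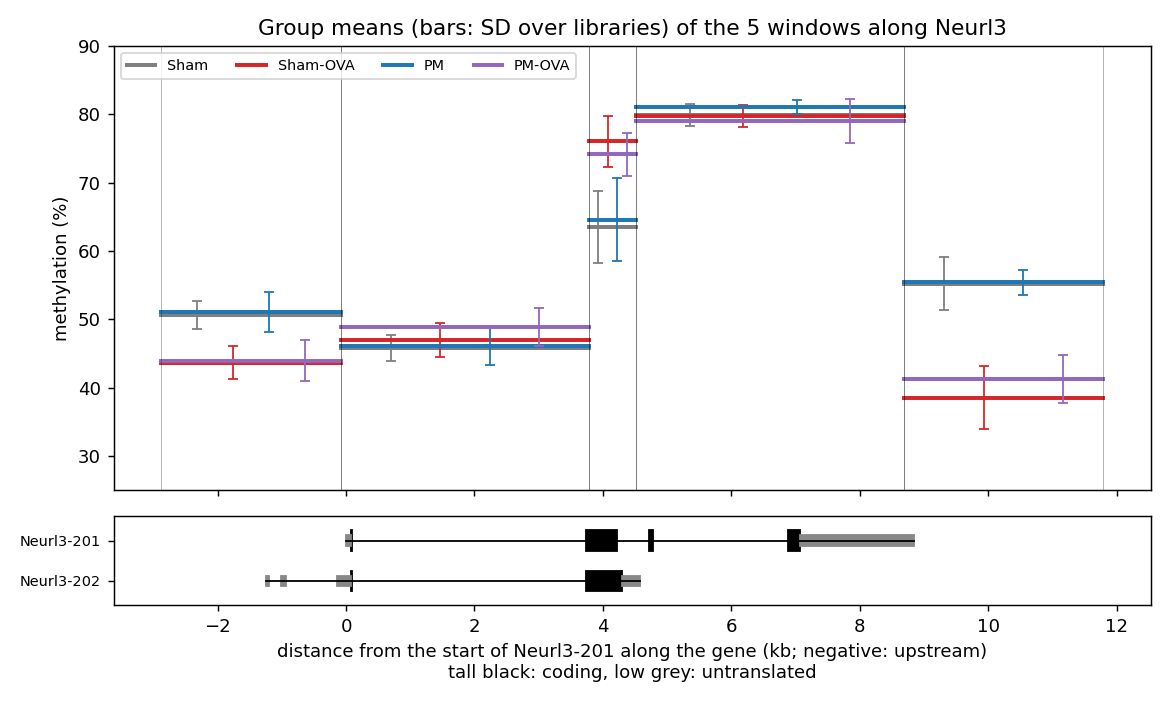
Group means of percent methylation (y axis) over the 5 adjoining windows against the distance from the start of Neurl3-201 in kb (x axis), with SD bars and the exons of both transcripts underneath. OVA groups lie below the groups without OVA in the 3' flanking window (38.6% and 41.3% against 55.2% and 55.5%) and above them in the short exon 2 window (76.1% and 74.2% against 63.5% and 64.6%).

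The opposite differences widened the contrast between exon 2 and the window that lies mostly downstream of the gene. The exon 2 window minus the 3' flanking window was 8.30 ± 7.06 points in Sham, 37.5 ± 7.07 in Sham-OVA, 9.17 ± 6.76 in PM and 32.9 ± 4.94 in PM-OVA. The smallest value in an OVA library was 26.9 points and the largest in a library without OVA was 19.2 points. The mean of the 5 windows, each given the same weight, was 59.0 ± 1.51% in Sham, 57.0 ± 1.28% in Sham-OVA, 59.7 ± 1.41% in PM and 57.5 ± 1.93% in PM-OVA. It was thus lower after OVA in both arms, with overlapping libraries. Windows were called differentially methylated regions (DMRs) where group means were at least 10 points apart and limma gave an adjusted p under 0.05. Among all genes with at least 1 DMR, 68 of 1367 in the Sham arm and 49 of 1088 in the PM arm had both a higher and a lower one. These were 0.178% and 0.128% of the 38141 genes tested, with a median of 26 and 24 windows, against 5 at Neurl3. This is given as background only, since Neurl3 was picked for opposite differences and its exon 2 window was below 10 points in the PM arm.

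At this gene, exon 2 was atypical of windows of its length. Only 4.54% of all windows were shorter, and the 5252 windows of like length (at most 20% shorter or 25% longer) had a median %DNAm of 1.05% in Sham, against 63.5% here. Its spread between libraries of the same group was wide as well, with a within-group SD of 4.72 points that exceeded that of 99.1% of all windows. The 3' flanking window had an SD of 3.61 points, above 98.2% of windows. The median SD over the windows of like length was 0.585 points for the exon 2 window and 1.59 points for the 3' flanking window. All 5 Neurl3 windows were more variable than most windows, the least at 85.4%. The SD of a percentage depends on its level, and windows of like methylation level were not compared. Whether Neurl3 is unusually variable for its level was therefore not tested.

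Whether the dam's treatment changed Neurl3 was tested on all 29 libraries with limma, on the log2 ratio of methylated to unmethylated percentage and with Benjamini-Hochberg adjustment over 259167 windows. No Neurl3 window passed the test between PM and Sham, between PM-OVA and Sham-OVA, or in its OVA difference between the arms. Adjusted p was 0.918 to 0.996 for PM without OVA, 0.868 to 0.988 for PM with OVA and 0.776 to 0.992 for the interaction, and 0 of 5 windows had an unadjusted p under 0.05 in any of them. Among all windows the share with an unadjusted p under 0.05 was 5.79%, 5.96% and 7.4%, respectively, and 0% passed the adjustment. The interaction compares the OVA differences of the arms, and the gene was picked by such differences. Which arm was used for the pick is not stated, so the choice may have affected the interaction's estimates and p-values.

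The intervals show what these numbers of libraries could have missed. In the exon 2 window PM was 1.09 points above Sham (95% interval −3.71 to 5.90), PM-OVA was 1.93 points below Sham-OVA (−6.58 to 2.73 for the difference) and the OVA difference was 3.02 points smaller in offspring of PM dams (−9.71 to 3.67 for the interaction). This interaction was −5.06 points without PM replicate 3 and −1.44 points without Sham replicate 5. In the 3' flanking window PM was 0.227 points above Sham (−3.50 to 3.95), PM-OVA was 2.70 points above Sham-OVA (−0.902 to 6.31) and the interaction was 2.48 points (−2.71 to 7.66). Leaving out 1 library gave 1.54 (without Sham-OVA replicate 4) to 3.89 points (without Sham-OVA replicate 5) for this interaction, and with the library mean as a covariate it was −0.192 points. The difference between PM-OVA and Sham-OVA at this window was 1.77 and 4.12 points without these same libraries, and 1.28 points with the covariate. The groups overlapped at all 5 windows in both maternal comparisons, where 0.0872% of all windows did not overlap without OVA and 0.0301% with OVA.

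The surroundings of Neurl3 were examined over the 39 windows of other genes within 100 kb. Of these, 0 were DMRs in either arm, against 0.775% of all tested windows in the Sham arm and 0.584% in the PM arm. With no minimum size, 14 of 39 passed an adjusted p under 0.05 by limma in the Sham arm (6 higher, 8 lower), which is 35.9% against 35.6% of all windows, and 16 in the PM arm (4 higher, 12 lower), which is 41.0% against 44.1%. Counts at an unadjusted p under 0.05 were 15 and 20, where 45% and 51.4% of all windows had such a p. Differences ran from −7.61 to 3.42 points in the Sham arm and from −8.46 to 3.17 points in the PM arm. Both larger Neurl3 differences lay outside this range, which the choice of the gene by these differences favoured.

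Windows past the adjusted p lay in both adjacent genes. Downstream lies Uggt1, a sensor of glycoprotein folding in the endoplasmic reticulum. The Uggt1 window nearest to Neurl3, chr1:36244498-36250025, was at 64.3% in Sham and 65.3% in Sham-OVA (adjusted p = 0.405, limma) and at 63.2% in PM and 64.7% in PM-OVA (adjusted p = 0.162). Of the 20 Uggt1 windows within 100 kb, 3 rose and 3 fell in the Sham arm and 4 rose and 3 fell in the PM arm at an adjusted p under 0.05, with rises of 2.10 to 3.42 points. The largest fall was at chr1:36240262-36243936, from 63.7% to 56.1% in the Sham arm (adjusted p = 2.97e-06, limma) and from 63.9% to 55.4% in the PM arm (adjusted p = 2.68e-07). The adjoining CpG-dense window, nearer to the start of Uggt1, was almost unmethylated, at 0.211% in Sham and 0.0853% in Sham-OVA. Upstream lies Arid5a, an RNA-binding protein that stabilises Il6 mRNA. Of its 7 windows, 3 fell in the Sham arm and 7 in the PM arm at an adjusted p under 0.05 by limma, and 0 rose in either. The largest fall was at chr1:36308774-36313008, from 68.3% to 63.0% (adjusted p = 0.000113) and from 68.7% to 62.1% (adjusted p = 3.23e-06). Between these genes and Neurl3, 11615 bp on the Uggt1 side and 29761 bp on the Arid5a side had no window in the table. Kansl3, Fer1l5 and 4930403P22Rik, farther upstream, supplied the remaining neighbouring windows.

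**Figure D3:**
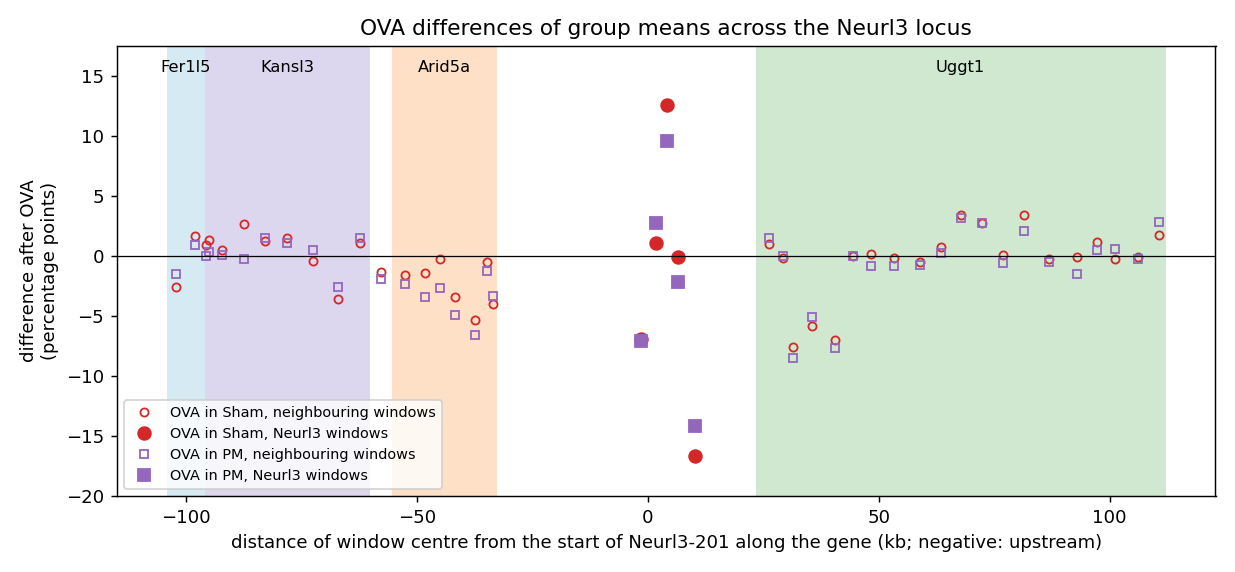
Difference of group means after OVA in percentage points (y axis) for the Neurl3 windows (filled) and the 39 neighbouring windows (open) against the distance of the window's centre from the start of Neurl3-201 in kb (x axis), with circles for the Sham arm, squares for the PM arm and shading for annotated genes. Neurl3 has the lowest (−16.6) and the highest (12.6) value of the region, and the neighbouring windows lie between −8.46 and 3.42.

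Other genes of the same family and pathway were counted over lists of genes, which were chosen with earlier results of these data known. The other Neuralized genes Neurl1a, Neurl1b, Neurl2 and Neurl4 had 49 tested windows and 0 DMRs in either arm, where 0.775% and 0.584% of all windows were DMRs, with differences from −3.87 to 6.32 points in the Sham arm and from −5.52 to 3.92 points in the PM arm, all of these extremes at Neurl1a. Notch ligands, receptors and the ligand ubiquitin ligases Mib1 and Mib2 (11 genes, 144 windows) had 3 DMRs in each arm (2.08% of their windows), all higher, against 0.479% and 0.263% of all windows that were higher DMRs. Of these, 2 were at Notch1, a receptor, where chr2:26496593-26500721 rose from 40.1% to 53.9% in the Sham arm (adjusted p = 6.15e-07, limma) and from 42.5% to 54.2% in the PM arm (adjusted p = 2.50e-06). The other was at Dll4, a ligand typical of endothelium, where chr2:119329620-119332500 rose from 55.9% to 66.0% (adjusted p = 5.45e-06) and from 54.8% to 66.1% (adjusted p = 5.70e-07). Median differences of this list were 0.431 and 0.104 points, beside −0.414 and −1.03 over all windows.

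Markers of cell types of the lung moved with OVA in the same libraries. The lists were chosen with earlier results of these data known, so their counts and p-values describe these data only. Among 20 leucocyte genes (152 windows), 23 windows were DMRs in the Sham arm, 22 of them lower, and 24 in the PM arm, 23 of them lower (15.1% and 15.8% of their windows). Of all windows, 0.775% and 0.584% were DMRs of either direction in these arms, and 0.296% and 0.321% were lower DMRs. Examples were Rhoh, a GTPase of blood cells (67.4% to 41.4% in the Sham arm, adjusted p = 5.83e-10, limma), and Ptprc, which encodes the pan-leucocyte antigen CD45 (69.3% to 50.2%, adjusted p = 1.52e-10). Among 8 endothelial genes (96 windows), 5 windows were DMRs in the Sham arm (4 higher, 1 lower) and 3 in the PM arm (2 higher, 1 lower), which is 5.21% and 3.12% of their windows against 0.775% and 0.584% of all windows. The largest difference was a fall at Pecam1, which encodes an adhesion molecule of endothelium that leucocytes also carry (chr11:106750342-106753694, 58.1% to 40.0% in the Sham arm, adjusted p = 1.80e-08, and 57.6% to 41.7% in the PM arm, adjusted p = 4.08e-08). The next largest was a rise at Egfl7 (51.2% to 65.4% in the Sham arm, adjusted p = 5.51e-05). Among 10 alveolar type II genes (75 windows), Etv5 had the only DMR, in the Sham arm (63.3% to 75.1%, adjusted p = 6.97e-07), which is 1.33% of the windows against 0.775% of all. The mean over leucocyte windows was 69.2% to 70.4% in Sham libraries and 66.4% to 68.1% in Sham-OVA, and 69.6% to 70.6% in PM and 66.2% to 67.4% in PM-OVA, so the groups did not overlap. RNA levels of these genes, and of Neurl3, were not analysed here.

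Within groups, the 3' flanking window varied with the leucocyte windows once the library's overall methylation was taken off. After subtraction of each group's mean, which removes the OVA differences, no relation of the window to the plain mean of the leucocyte list was detected (r = 0.0616, rho = 0.0409, permutation p = 0.784 and 0.841, n = 29). Against the leucocyte list minus the library's mean over all windows, a measure added after seeing the data, r was 0.672 (permutation p = 0.00018, adjusted p = 0.0054 over 30 correlations) and rho was 0.706 (adjusted p = 0.0015). It was 0.676 without the 2 libraries farthest from the median, and 0.821 in Sham, 0.799 in Sham-OVA, 0.563 in PM and 0.658 in PM-OVA. With the endothelial list, measured the same way, r was −0.509 (permutation p = 0.00071, adjusted p = 0.0106) and rho was −0.529, with the same sign in all 4 groups, and r was −0.513 without the 2 farthest libraries. With the alveolar type II list r was −0.372 (permutation p = 0.077).

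Relative to the library's mean, the leucocyte list moved from 0.834 ± 0.177 points in Sham to −1.75 ± 0.477 in Sham-OVA, and from 0.680 ± 0.335 in PM to −1.49 ± 0.483 in PM-OVA. The endothelial list moved from −2.63 ± 0.444 to 0.0663 ± 0.371 and from −2.24 ± 0.902 to 0.0993 ± 0.485, and the alveolar type II list from −3.73 ± 0.429 to −2.10 ± 0.567 and from −3.73 ± 0.391 to −2.04 ± 0.535. The part of the cell mix in the Neurl3 differences was not tested.

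No such relation was detected for the exon 2 window within groups. Its r was −0.217 with the leucocyte list (permutation p = 0.225), 0.122 with the endothelial list (p = 0.597) and 0.205 with the alveolar type II list (p = 0.279), each relative to the library's mean and over the 29 libraries in a permutation test. With the leucocyte list r was −0.151 in Sham, −0.554 in Sham-OVA, 0.210 in PM and −0.538 in PM-OVA, and it was −0.447 without PM replicate 3 and Sham replicate 5, the 2 libraries farthest from the median. Nor was a relation with the 3' flanking window detected, for which r was −0.205 (permutation p = 0.274, adjusted p = 0.929 over 30 correlations) and rho was −0.284. A library with a low 3' flanking window for its group was therefore not detectably one with a high exon 2 window. Among the other windows, it varied most with the adjoining exon 1 window (r = 0.510, permutation p = 0.00549, adjusted p = 0.0549; rho = 0.537, adjusted p = 0.0383). Of the 30 correlations computed, 2 had an adjusted p under 0.05 by r.

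**Figure D4:**
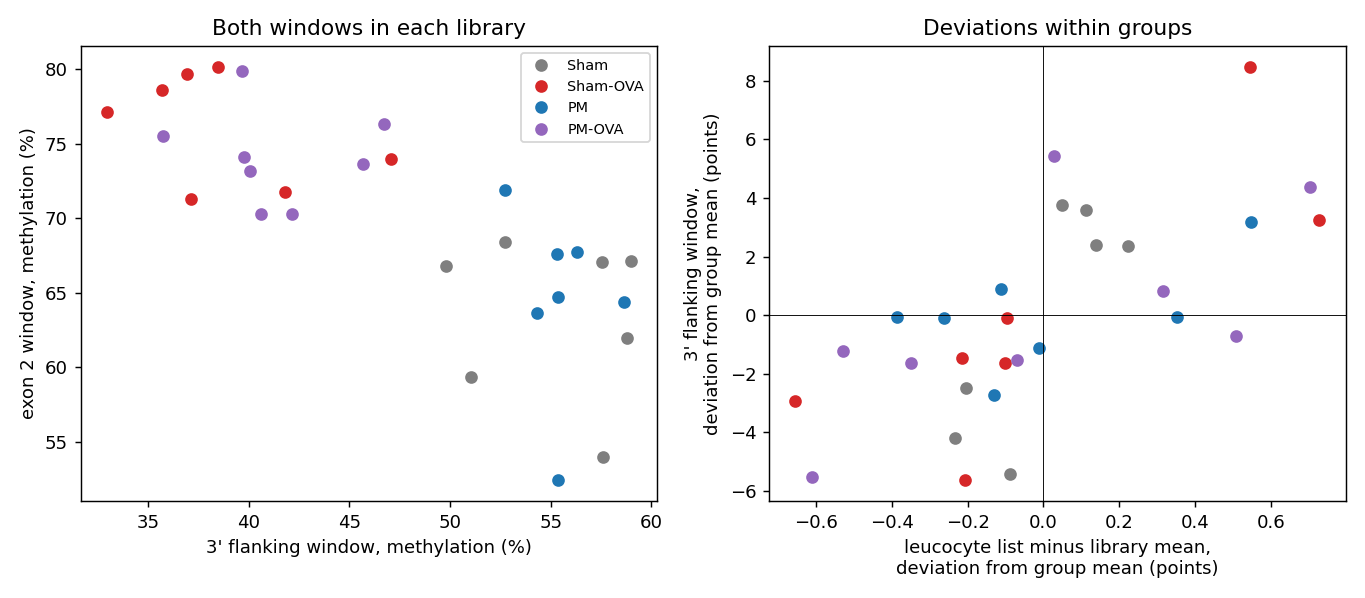
Left, percent methylation of the exon 2 window (y axis) against the 3' flanking window (x axis) in each of the 29 libraries. Right, deviation of the 3' flanking window from its group mean (y axis, points) against that of the leucocyte list minus the library mean (x axis, points), with colours for groups. OVA libraries separate from the others on the left, where the relation within groups is weak (r = −0.205), and on the right the points of all 4 groups rise together (r = 0.672).

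The windows most alike to the 2 Neurl3 windows with the largest differences were found over all 29 libraries among 258234 windows of other genes, on other chromosomes or at least 1 Mb away. These correlations of log2 ratios include the OVA difference by which Neurl3 was picked, the libraries and their groups are shared, and no test is given. For the 3' flanking window they were Mcoln2 (r = 0.962), a lysosomal cation channel, Mrtfa (0.947), a coactivator of serum response factor, Nf1 (0.946), a negative regulator of Ras, Cyfip2 (0.945), a regulator of actin assembly, and Ptprc (0.942), which is on the leucocyte list. The Ptprc window, chr1:138168721-138175449, is the one named above, with 68.1% in PM and 51.6% in PM-OVA. For the exon 2 window they were Mtss1 (0.892), a membrane-binding regulator of actin, Tac4 (0.885), a tachykinin, Ergic1 (0.878), a cargo protein of the early secretory pathway, Zfp628 (0.876), a zinc finger protein, and Gpsm1 (0.871), a modulator of G protein signalling. The Mtss1 window, chr15:58987114-58988967, was at 52.6% in Sham, 67.2% in Sham-OVA, 52.3% in PM and 66.7% in PM-OVA.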

How the data were processed

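Lung DNA of 29 libraries was analysed in 4 groups taken from the labels. As the labels and methods describe, the authors made enzymatic methyl-seq libraries with unmethylated lambda DNA, trimmed reads with Trim Galore, aligned them to GRCm38 and called methylation with DRAGEN, and averaged it in SeqMonk over windows overlapping genes. The deposited values are percent methylation per window and library, without counts or coverage, so the study's count model could not be fitted and precision rests on the number of libraries. No column was left without a sample.

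For the fit, the methylated and the unmethylated percentage each received a pseudocount of 1 point and their ratio was put on the log2 scale, and 4 group means were fitted with limma 3.58.1 (R 4.3.3) to the 259167 windows with at least 3 values per group. Tests were 2-sided, with Benjamini-Hochberg adjustment over all of them. Intervals of 95% are on the percentage scale. Correlations used 100000 permutations within groups (Python 3.11.15, scipy 1.17.1). Sequence (pysam 0.24.0) and GENCODE M21 annotation are of GRCm38, on which the windows' ends were checked. Tests were checked on simulated data.

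All Neurl3 windows are named, and otherwise the 5 windows most correlated with each of 2 Neurl3 windows, genes within 100 kb, and up to 4 called windows per list by size. Window names are descriptive. The members and lists were chosen with earlier results of these data known. Alternatives covered scale, pseudocount (0.1), library centring, covariates, pairing, filters, thresholds and libraries left out. Replicates are separate labelled samples.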

Additional observations from a re-analysis of the deposited data

Results flagged for a closer look

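Of the 20 combinations of Neurl3 window and group, 2 held a library far from the rest by Dixon's ratio at 95%, a rate at which chance alone would mark about 1 in 20. In the exon 2 window PM replicate 3 was at 52.4%, and the next PM library was at 63.7%. In the upstream window PM-OVA replicate 1 was at 50.6%, with the next PM-OVA library at 45.2%. In the PM arm, the difference after OVA was 7.51 points for the exon 2 window without the former and −8.01 points for the upstream window without the latter.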

How the results depend on the processing

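The OVA differences of the 3' flanking, exon 2 and upstream windows kept their direction with any library left out. The ranges were −18.1 to −15.7 (Sham arm) and −14.9 to −13.4 points (PM arm) for the 3' flanking window, 11.0 to 13.4 and 7.51 to 10.8 for exon 2, and −7.57 to −6.26 and −8.01 to −6.49 for the upstream window. No Neurl3 window passed a maternal test under any alternative. Small maternal differences changed sign without a test being passed. With libraries centred, PM without OVA at the 3' flanking window was −0.0688 points and the interaction at the upstream window 0.440. Without the Rel libraries, PM with OVA at the exons 3 and 4 window was 0.601 and the upstream interaction 0.612. With the library mean as covariate, the 3' flanking interaction was −0.192. Leaving out 1 library gave, for PM without OVA, −0.677 to 0.855 (3' flanking), −0.493 to 3.13 (exon 2), −0.243 to 0.907 (exon 1) and −0.200 to 1.20 (upstream), for PM with OVA −1.23 to 0.179 (exons 3 and 4) and −0.666 to 0.928 (upstream), and for the upstream interaction −1.09 to 0.504. At exons 3 and 4 the Sham arm's OVA difference ran from −0.559 to 0.294, and at exon 1 from 0.287 to 1.65.

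At a minimum of 5 points, 4 neighbouring windows were called in each arm, and 99 (Sham arm) and 86 (PM arm) list windows in place of 32 and 30. At an adjusted p under 1e-06, the endothelial list had 1 called window in each arm in place of 5 and 3, and the Notch list 1 in each arm in place of 3. Without Sham replicate 1, the lists had 30 called windows in each arm, of which 2 (Sham arm) and 3 (PM arm) were of the Notch list. Within groups, the 3' flanking window and the leucocyte list had r = 0.690 when both were taken relative to the library mean, and 0.672 when only the list was. The exon 2 window and that list had r = 0.00454, which became −0.168 and −0.217 in these ways (−0.447 in the latter without the 2 farthest libraries), −0.207 for the plain list without these libraries, −0.00142 without Sham replicate 1 and −0.0233 on the log2 scale. The cause was not tested.

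Same-numbered replicates did not deviate together (r from −0.0409 to 0.0563, 0 of 7 pairs over 0.1 in each of 4 pairs of groups). With the replicate block, 0 Neurl3 windows passed a maternal test and the lists had 32 and 31 called windows. Coverage per window is unknown here, so sampling error cannot be separated from differences between animals.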
